A study of Mus musculus with 4 samples.

Results

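The genes described here encode 10 checkpoint ligands, surface or secreted proteins through which tumor cells and myeloid cells restrain or tune T cells. They were listed by name: Cd274, Pdcd1lg2, Cd80, Cd86, Cd276, Vtcn1, Lgals9, Pvr, Nectin2 and Vsir. Each gene was read from 1000 bp upstream of its first transcription start site (TSS) to its end, out of 55413 annotated mouse genes. A CpG site is the cytosine of a CpG dinucleotide on 1 strand, and a site was used where each of the 4 tumors had 20 reads or more. By this rule the 10 genes held 298 sites, which belong to 252 CpG dinucleotides. Of these sites, 155 lay in promoters (1000 bp upstream to 500 bp downstream of any TSS of the gene) and 143 in the rest of the genes, called gene bodies.

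The method was RRBS (reduced representation bisulfite sequencing), which cuts DNA at CCGG and reads the CpGs near the cuts as methylated or unmethylated. The 4 tumors grew subcutaneously in the leg of female 129Sv/Ev mice, 12 to 16 weeks old from injected lung adenocarcinoma cells. In 2 mice the cells were 344SQP, the parental line, from a mouse model that carries p53 R172HΔg/+, and in 2 mice 344SQR, a line derived from 344SQP with acquired resistance to anti-PD1, so each group is 1 cell line. All 4 mice were given anti-PD1 at 10 mg/kg, 4 doses from day 4 at 2 per week, and the tumors were taken 24 h after the last dose, with no untreated tumor among them. Whole tumor DNA was read, so tumor cells and host cells cannot be told apart in a value. The 344SQP tumors held 116794455 and 138331886 CpG calls (coverage summed over sites) and the 344SQR tumors 160548303 and 174689402. Pairs of values below are given as replicate 1, then replicate 2.

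PD-L1 (Cd274) and PD-L2 (Pdcd1lg2) bind PD-1 on T cells, and PD-L1 on tumor cells is induced by interferon gamma. CD80 and CD86 of antigen-presenting cells bind CD28, which activates T cells, and CTLA4, which restrains them. B7-H3 (Cd276), B7-H4 (Vtcn1), galectin-9 (Lgals9) and VISTA (Vsir) restrain T cells by other receptors, and PVR and nectin-2 are adhesion molecules bound by TIGIT and CD226. Methylation of a CpG-rich promoter usually goes with a silent gene, whereas the bodies of active genes are usually methylated. The comparison of the lines asks whether the genes of these ligands carry other methylation in tumors that resist anti-PD1. No expression was measured in these samples.

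The promoters of Cd276, Pvr and Nectin2 were under 3% methylated on average in the tumors of both lines, Vsir was intermediate, and 5 of the 10 promoters had no site with 20 reads in all 4 tumors. Among the 5 measured promoters, Vsir passed the test across all promoters (FDR under 0.05) and was higher in 344SQR. In gene bodies, Pdcd1lg2, Cd80, Cd276 and Vsir passed and were lower in 344SQR, by 12.9, 6.09, 2.54 and 14.0 percentage points. The test is a two-sided likelihood ratio test per site, from logistic regression on the line, with the sites of a region combined as signed z scores. Of all 20135 promoters measured, 38.5% were called by this test, 29.5% lower and 9.03% higher in 344SQR, against 1 of 5 member promoters, which was higher. Of 18780 gene bodies, 65.4% were called, 58.3% lower and 7.10% higher, against 4 of 10 member bodies, none of them higher. In gene bodies, those of the ligands and all others alike, most calls were thus lower in 344SQR. Of all single sites, 24.4% were called and 18.4% were called lower, and of the 298 member sites 56 were called, 43 lower and 13 higher. The tumors of the lines did not overlap in 0 of 5 member promoters and 3 of 10 member bodies (Pdcd1lg2, Cd80 and Vsir), against 39.9% of promoters and 54.2% of bodies overall.

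The likelihood ratio test counts reads as independent and leaves out how far tumors of the same line lie apart. The quasi-likelihood test of edgeR, which uses that spread, called 0 of 5 member promoters and 0 of 10 member bodies, and 0.0745% of 20124 promoters and 0.00533% of 18750 bodies overall. At an unadjusted p under 0.05 edgeR had 0 of 5 member promoters and 1 of 10 member bodies (Pdcd1lg2). Among all those tested it had 1769 of 20124 promoters and 3312 of 18750 bodies. With 2 tumors against 2, an exact two-sided permutation test of single values cannot give a p below 0.333.

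**Figure D1:**
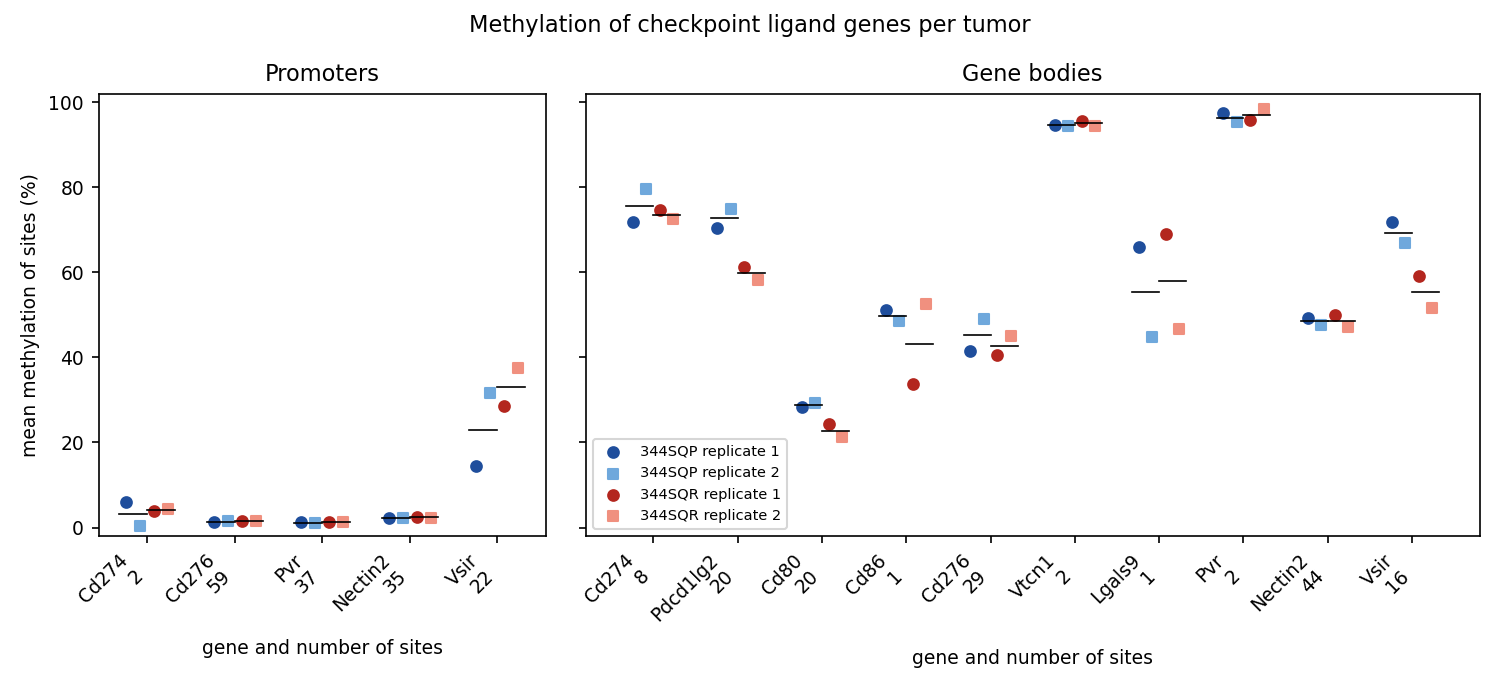
Mean methylation (percent, vertical axis) of the promoter (left) and gene body (right) of each checkpoint ligand gene, with the number of sites under each name. Points are the 4 tumors and lines the mean of each cell line; the promoters of Cd276, Pvr and Nectin2 lie under 3% in every tumor, and the Pdcd1lg2, Cd80 and Vsir bodies are lower in both 344SQR tumors than in both 344SQP tumors.

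Cd274, the gene of PD-L1 (chromosome 19, 29367455 to 29388095 in mm10, + strand), had 2 promoter sites, both in intron 1, 139 and 171 bp past its TSS. Their mean was 5.90% and 0.4% in the 344SQP tumors and 3.80% and 4.40% in the 344SQR tumors, at 101 to 187 reads. These 2 sites thus held little methylation in every tumor, and the 344SQP tumors lay on both sides of the 344SQR tumors. The promoter window holds 43 CpGs, so the 2 sites do not stand for the whole promoter. The line means were 3.15% ± 3.89 and 4.10% ± 0.424 (SD, n = 2), and the promoter was not called (FDR 0.456). Without replicate 1 of 344SQP the difference was 3.70 points with an FDR of 0.00213, and without its replicate 2 it was -1.80 points (FDR 0.506). The gene body had 8 sites with a mean of 71.7% and 79.6% in 344SQP and 74.7% and 72.5% in 344SQR (FDR 0.570). It held 2 different stretches: 3 sites in intron 1 at 29371711 to 29371871 with 43.8%, 65.5%, 51.7% and 47.4%, and 5 sites in exon 4 and intron 4 at 29380459 to 29380611 with 88.5%, 88.1%, 88.5% and 87.5%. The mean of the second stretch was nearly alike in the 4 tumors, while its 5 sites differed by -8.65 to 3.95 points, none of them called. None of the 10 Cd274 sites was called. The body was called with z scores without a sign (FDR 0.00914), and its difference of -2.10 points was 1.83 points without replicate 2 of 344SQP (FDR 0.396).

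The measured Cd274 CpGs and the start of the gene are shown because this promoter is the one through which interferon acts on PD-L1. The first run is chr19:29367579-29367641 of mm10, + strand, with the measured CpGs in capitals. The second is chr19:29367318-29367457, + strand, from the RefSeq promoter window of GRCm38, around the RefSeq start, with a match to the core of the interferon-stimulated response element (GAAANNGAA, searched on both strands) in capitals.
Cd274 intron 1: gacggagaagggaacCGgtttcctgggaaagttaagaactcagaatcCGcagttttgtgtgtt
Cd274 start: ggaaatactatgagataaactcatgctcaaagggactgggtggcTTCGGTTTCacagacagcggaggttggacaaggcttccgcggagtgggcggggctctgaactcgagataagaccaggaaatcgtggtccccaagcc
The match begins at position -76 from the RefSeq start, and no CpG within this second run had enough reads to be measured. Windows of 250 bases before to 50 after the RefSeq start were at hand for 8 of the 10 genes. The same motif stood in 8.56% of all 32851 such windows, and among the members also in that of Lgals9, with 2 matches. Neither the interferon gamma motif TTCNNNGAA (8.30% of windows) nor the NF-kB motif GGGANTTCC (1.68%) had a match in the 8 member windows.

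Pdcd1lg2, the gene of PD-L2 (chromosome 19, 29410919 to 29471161, + strand), begins 22.8 kb past the end of Cd274. Its 20 gene body sites had a mean of 70.5% and 74.9% in the 344SQP tumors and 61.3% and 58.2% in the 344SQR tumors. Both 344SQR tumors were below both 344SQP tumors, 72.7% ± 3.16 against 59.8% ± 2.18 (SD, n = 2), and the body fell by 12.9 points (FDR 1.86e-54). The difference lay between -15.2 and -10.7 points when any of the tumors was left out, and edgeR gave a log2 odds ratio of -1.12 with an adjusted p of 0.195. Of the 20 sites 13 were called, all 13 lower in 344SQR, and 18 had a lower mean there. All 4 stretches of the gene with measured sites had a lower mean in 344SQR. In exon 2 and intron 2, 7 sites at 29437465 to 29437660 had 84.0% and 84.8% in 344SQP and 75.6% and 66.6% in 344SQR. In intron 3 and exon 4, 6 sites at 29454445 to 29454517 had 38.1% and 50.1% against 22.5% and 32.3%. In intron 4, 4 sites at 29463514 to 29463613 had 86.5% and 87.5% against 79.4% and 74.4%. Between the first and the second TSS, 3 sites at 29420644 to 29420865 had 82.3% and 84.9% against 81.7% and 69.1%. The tumors of the lines did not overlap in any of the 4 stretches. The largest difference of a called site was in exon 2 at 29437498, where 88.0% and 71.3% of 125 and 157 reads were methylated in 344SQP and 55.4% and 40.7% of 148 and 189 reads in 344SQR (FDR 1.85e-14). The 95% Wilson intervals of this site ran from 63.8% to 77.8% in the lower 344SQP tumor and from 47.4% to 63.2% in the higher 344SQR tumor. Such intervals cover counting error alone, since PCR copies of a molecule cannot be told apart.

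The stretches with the largest number of called Pdcd1lg2 sites are chr19:29437460-29437637 and chr19:29454430-29454532 of mm10, + strand, with the measured CpGs in capitals.
Pdcd1lg2 exon 2 and intron 2: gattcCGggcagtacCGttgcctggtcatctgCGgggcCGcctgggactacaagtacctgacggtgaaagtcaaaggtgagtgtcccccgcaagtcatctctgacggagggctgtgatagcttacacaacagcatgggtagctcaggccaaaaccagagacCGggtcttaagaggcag
Pdcd1lg2 intron 3 and exon 4: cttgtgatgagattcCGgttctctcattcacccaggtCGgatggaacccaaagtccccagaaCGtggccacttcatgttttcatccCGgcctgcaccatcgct
The first holds 8 CpGs, of which 5 were measured, and the second 5, of which 4 were measured.

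**Figure D2:**
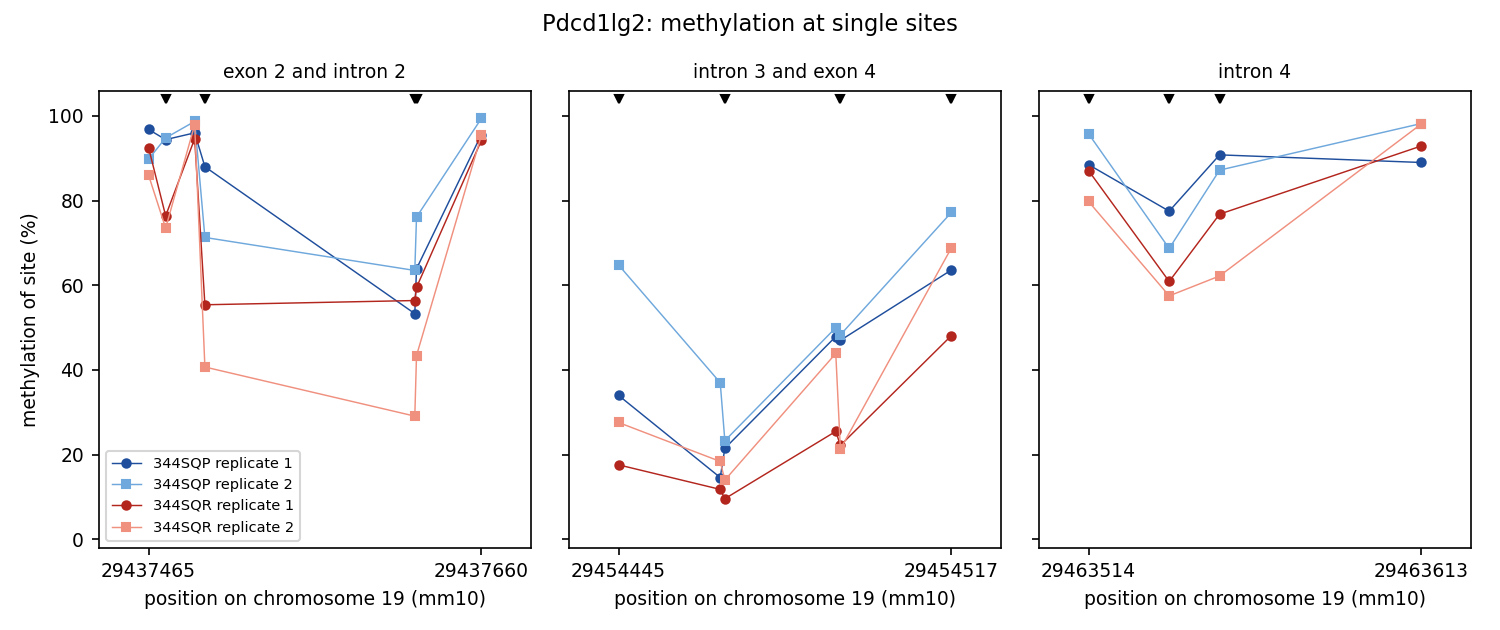
Methylation of single Pdcd1lg2 sites (percent, vertical axis) against position on chromosome 19 (mm10) in 3 stretches of the gene body, 1 line per tumor. Triangles mark called sites, and at 29437498 in exon 2 the 344SQP tumors have 88.0% and 71.3% and the 344SQR tumors 55.4% and 40.7%.

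Vsir, the gene of VISTA (chromosome 10, 60346851 to 60372684, + strand), lies wholly within Cdh23, a cadherin gene on the other strand. Its promoter was called higher and its gene body lower in 344SQR, and the promoter call rests on 1 tumor. The 22 promoter sites had a mean of 14.5% and 31.5% in the 344SQP tumors and 28.6% and 37.6% in the 344SQR tumors. Replicate 1 of 344SQP stood apart as the lowest, and replicate 2 of 344SQP lay between the 344SQR tumors. The line means were 23.0% ± 12.1 and 33.1% ± 6.34 (SD, n = 2), a difference of 10.1 points (FDR 5.85e-24). Without replicate 1 of 344SQP the difference was 1.57 points and the call ended (FDR 0.487). It was 18.6 points without replicate 2 of 344SQP and 5.62 points without replicate 2 of 344SQR, both called, and the adjusted p of edgeR was 0.799. Of these sites 21 lay at 60346919 to 60347156, 68 to 305 bp past the first TSS, and 6 of them were called, each higher in 344SQR. The largest difference was in exon 1 at 60347035, where 1.1% and 35.7% of 87 and 112 reads were methylated in 344SQP and 44.0% and 68.4% of 116 and 95 reads in 344SQR (FDR 1.37e-11). The Wilson intervals ran from 27.4% to 44.9% in the higher 344SQP tumor and began at 35.3% in the lower 344SQR tumor, so these neighbors were not separated at this depth. The other promoter site, 985 bp upstream, had 95.6%, 96.5%, 96.7% and 96.2% of 91 to 130 reads, with Wilson intervals between 89.2% and 98.7%.

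The 16 sites of the Vsir gene body had a mean of 71.8% and 66.8% in 344SQP and 59.0% and 51.6% in 344SQR. Both 344SQR tumors were below both 344SQP tumors, 69.3% ± 3.54 against 55.3% ± 5.25 (SD, n = 2), and the body fell by 14.0 points (FDR 2.60e-26). The difference ran from -17.7 to -10.2 points when a tumor was left out, and edgeR gave an adjusted p of 0.362. It lay in 13 sites of intron 3, exon 4 and intron 4 at 60364017 to 60364358, with 80.9% and 73.8% in 344SQP and 66.8% and 52.6% in 344SQR, of which 9 sites were called lower. The largest difference was in exon 4 at 60364229, with 91.9% and 93.7% of 74 and 95 reads in 344SQP and 67.5% and 42.5% of 80 and 113 reads in 344SQR (FDR 1.35e-14). The intervals ran from 83.4% to 96.2% in the lower 344SQP tumor and from 56.6% to 76.8% in the higher 344SQR tumor. In the 3' UTR, 3 sites at 60371489 to 60371577 had a mean of 32.3% and 36.2% against 25.5% and 47.5%, with 1 site called lower and 1 called higher.

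The Vsir stretches with the most called sites are chr10:60347002-60347148, mostly coding exon 1 and intron 1, and chr10:60364002-60364253, with 3 measured CpGs in intron 3 and 5 in exon 4, both of mm10, + strand, with the measured CpGs in capitals.
Vsir exon 1 and intron 1: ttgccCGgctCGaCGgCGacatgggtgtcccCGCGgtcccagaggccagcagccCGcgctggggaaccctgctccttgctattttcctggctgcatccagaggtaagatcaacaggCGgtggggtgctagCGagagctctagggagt
Vsir intron 3 and exon 4: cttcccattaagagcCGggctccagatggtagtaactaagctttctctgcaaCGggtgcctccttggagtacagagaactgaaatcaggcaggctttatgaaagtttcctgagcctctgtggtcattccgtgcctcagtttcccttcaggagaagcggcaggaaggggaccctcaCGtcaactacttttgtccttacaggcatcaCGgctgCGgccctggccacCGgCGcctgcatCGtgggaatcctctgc
The first run holds 10 CpGs in 147 bases and the second 10 in 252 bases.

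**Figure D3:**
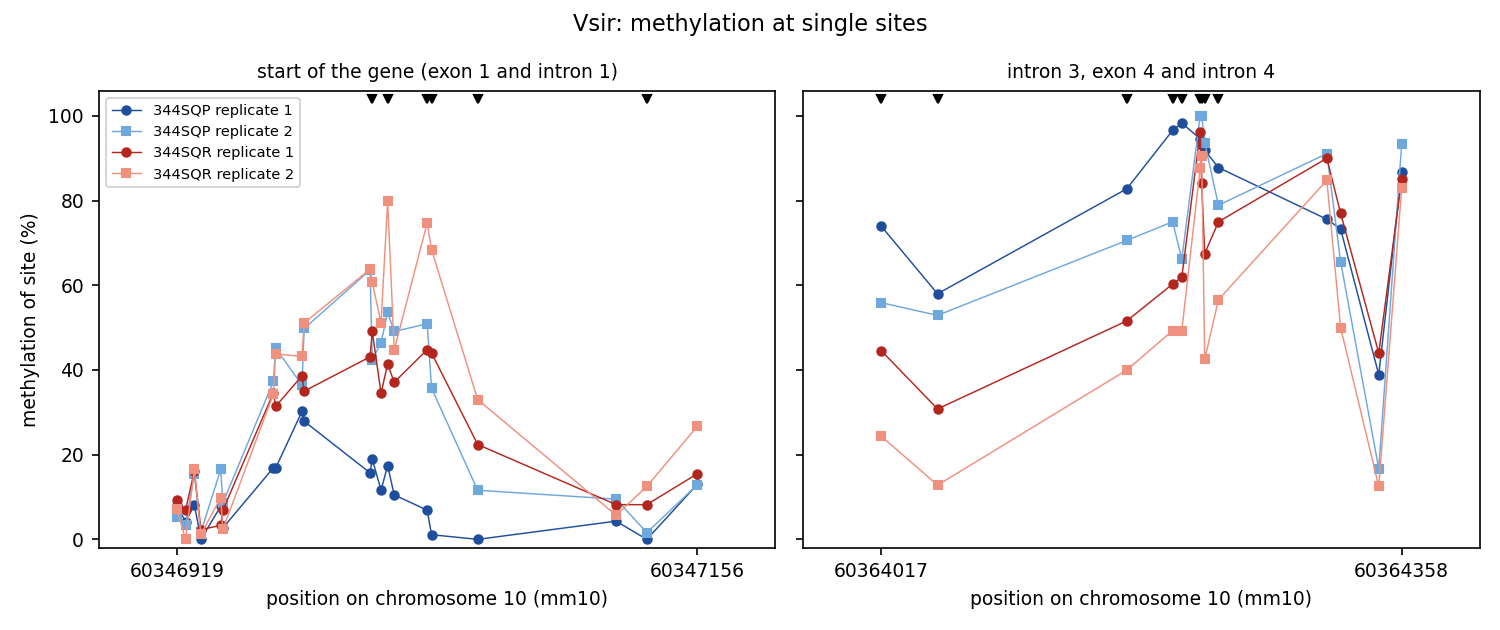
Methylation of single Vsir sites (percent, vertical axis) against position on chromosome 10 (mm10) at the start of the gene (left) and around exon 4 (right), 1 line per tumor. Triangles mark called sites; at 60347035 replicate 1 of 344SQP has 1.1% and replicate 2 of 344SQR 68.4%, and at 60364229 the 344SQP tumors have 91.9% and 93.7% and the 344SQR tumors 67.5% and 42.5%.

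By the smallest mean distance over the 4 tumors, the promoters most like that of Vsir among 16691 with at least 5 sites were those of Sox18, Bhlhe23 and Prob1, at a distance of 1.79, 2.02 and 2.11 points. Sox18, a transcription factor gene of endothelium, had 13.3%, 30.7%, 25.8% and 35.2% over 18 sites. Bhlhe23 had 18.3%, 30.7%, 25.8% and 37.1%, and Prob1 had 13.4%, 25.9%, 28.1% and 38.9%.

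Cd276, the gene of B7-H3 (chromosome 9, 58524298 to 58555437, - strand), had a promoter low in methylation on average and a mixed gene body. Its 59 promoter sites had a mean of 1.25% and 1.57% in 344SQP and 1.49% and 1.45% in 344SQR (FDR 0.257), and the difference of 0.0644 points was -0.0932 points without replicate 1 of 344SQP. The site at 58555124 in the 5' UTR stood out with 23.9%, 26.7%, 23.4% and 20% of 71, 120, 197 and 125 reads (Wilson intervals between 13.9% and 35.2%), and was not called. A single promoter site was called, at 58555092 in the 5' UTR, with 1.4% and 2.7% of 142 and 149 reads in 344SQP and 0.4% and 0.0% of 252 and 212 reads in 344SQR (FDR 0.0406). The 0 of 212 reads has a Wilson interval up to 1.78%. With Fisher's exact test the site was not called (FDR 0.0649). The 29 gene body sites had a mean of 41.5% and 49.1% in 344SQP and 40.6% and 44.9% in 344SQR, 45.3% ± 5.39 against 42.7% ± 3.06 (SD, n = 2), and the body was called lower by 2.54 points (FDR 4.71e-05). That call rests on few tumors: it ended without replicate 1 of 344SQR (-0.374 points, FDR 0.201), and without replicate 2 of 344SQP the difference was 1.27 points (FDR 0.671). It was -6.34 points without replicate 1 of 344SQP and -4.70 points without replicate 2 of 344SQR, both called, and the adjusted p of edgeR was 0.392.

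Within the Cd276 body the stretches went different ways. In exon 4, 5 sites at 58535496 to 58535656 had 90.5% and 92.7% in 344SQP and 83.2% and 81.5% in 344SQR, with no overlap. In exon 3, 5 sites at 58537269 to 58537440 had 50.0% and 76.7% against 64.8% and 86.8%, with replicate 1 below replicate 2 in both lines. In intron 1, 5 sites at 58542349 to 58542478 had 54.2% and 72.0% against 47.7% and 50.7%. The called exon 4 site at 58535649 had the largest difference of any member site, -39.6 points. There 80.8% and 87.3% of 130 and 110 reads were methylated in 344SQP and 55.8% and 33.1% of 163 and 139 reads in 344SQR (FDR 1.35e-14), with Wilson intervals from 73.2% to 86.6% in the lower 344SQP tumor and from 48.2% to 63.2% in the higher 344SQR tumor. Its neighbor 7 bases away, at 58535656, was called too, with 96.1% and 97.3% of 129 and 110 reads against 87.7% and 92.0% of 163 and 138 reads (-6.85 points, FDR 0.00736; intervals of the nearest tumors 91.2% to 98.3% and 86.3% to 95.5%). Adjoining CpGs thus differed in how far they fell. Both are in the run chr9:58535634-58535671 of mm10, + strand, CpGs in capitals.
Cd276 exon 4: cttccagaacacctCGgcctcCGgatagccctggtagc

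Cd80 (chromosome 16, 38455561 to 38496335, + strand) had 20 gene body sites with a mean of 28.4% and 29.4% in 344SQP and 24.4% and 21.2% in 344SQR. Both 344SQR tumors were below both 344SQP tumors, 28.9% ± 0.665 against 22.8% ± 2.30 (SD, n = 2), and the body fell by 6.09 points (FDR 7.50e-09), from -7.72 to -4.47 points when a tumor was left out. The adjusted p of edgeR was 0.723. Most of these sites are not Cd80 sequence proper. RefSeq places 2 pseudogenes in the introns of Cd80, and 17 of the 20 sites lie in them, including all 8 called sites. Gm8590 in intron 3 (38476490 to 38477721) held 8 sites with a mean of 7.89%, 15.8%, 10.8% and 8.59%, of which 3 were called. Ck-ps3, a creatine kinase pseudogene in intron 5 (38483182 to 38484596), held 9 sites with 26.2% and 24.2% in 344SQP and 16.8% and 13.3% in 344SQR, of which 5 were called. The 3 sites outside pseudogenes had 90.0%, 80.9%, 83.7% and 78.4%, and none was called. A pseudogene resembles its parent gene, and whether reads of the parent were placed there was not tested. The largest difference of a called site was in Ck-ps3 at 38484049, with 37.5% and 51.0% of 48 and 51 reads in 344SQP and 26.5% and 11.1% of 34 and 36 reads in 344SQR (FDR 0.00232). The Wilson intervals of the nearest tumors overlapped, from 25.2% to 51.6% and from 14.6% to 43.1%. The run chr16:38483888-38484132 of mm10, + strand, measured CpGs in capitals, is printed since it holds 5 of the 8 called Cd80 sites.
Cd80 intron 5, Ck-ps3: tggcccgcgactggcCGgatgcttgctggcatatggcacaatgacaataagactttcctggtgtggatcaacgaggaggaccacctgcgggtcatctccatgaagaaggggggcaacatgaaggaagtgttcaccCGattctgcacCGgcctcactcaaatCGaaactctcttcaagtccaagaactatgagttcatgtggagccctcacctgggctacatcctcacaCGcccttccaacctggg

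Cd86 (chromosome 16, - strand) had 1 site, in intron 1 at 36631858, with 51.1% and 48.5% in 344SQP and 33.8% and 52.5% in 344SQR of 47, 68, 68 and 61 reads. The lowest tumor had a Wilson interval from 23.7% to 45.7% and the others ran from 37.1% to 64.7%. The lines overlapped (FDR 0.345), and the difference of -6.65 points was 2.70 points without replicate 1 of 344SQR. Vtcn1, the gene of B7-H4 (chromosome 3, + strand), had 2 intron sites with a mean of 94.7% and 94.4% against 95.7% and 94.4% (FDR 0.911). Its difference of 0.475 points was -0.175 points without replicate 1 of 344SQR. Lgals9 (chromosome 11, - strand) had 1 site, in intron 1 at 78977717, with 65.9% and 44.8% of 135 and 154 reads in 344SQP and 69.0% and 46.7% of 216 and 214 reads in 344SQR. The intervals ran from 57.6% to 74.8% in the replicates 1 and from 37.2% to 53.4% in the replicates 2. The site was high in replicate 1 and low in replicate 2 of both lines, and was not called (FDR 0.464). Leaving out a tumor moved its difference from 2.50 points to 13.0 points without replicate 1 of 344SQP (FDR 0.00921), 13.7 points without replicate 2 of 344SQR (FDR 0.00277), -8.05 points without replicate 2 of 344SQP (FDR 0.142) and -8.65 points without replicate 1 of 344SQR (FDR 0.108). At equal depth it was 7.04 points (FDR 0.140).

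Pvr and Nectin2, whose products bind the same receptors, lie 153 kb apart on chromosome 7, both on the - strand. The 37 promoter sites of Pvr had a mean of 1.34% and 1.05% in 344SQP and 1.30% and 1.27% in 344SQR (FDR 0.961), and none was called. Its 2 body sites, in intron 3, had 97.4% and 95.3% against 95.8% and 98.3% (FDR 0.745). The differences, 0.0932 and 0.65 points, had the other sign without replicate 2 of 344SQP (-0.0554 and -0.4 points), and that of the body also without replicate 2 of 344SQR (-0.6 points). The 35 promoter sites of Nectin2 had a mean of 2.31% and 2.16% against 2.58% and 2.17% (FDR 0.300). They were called without replicate 1 of 344SQP, at 0.219 points (FDR 0.0161), and the difference was -0.0657 points without replicate 1 of 344SQR. The called promoter site with the largest difference, at 19749069 in intron 1, had 8.6% and 12.8% of 70 and 94 reads in 344SQP and 0.0% and 6.0% of 82 and 67 reads in 344SQR (FDR 0.0147). The intervals of the nearest tumors overlapped, from 3.99% to 17.5% and from 2.35% to 14.4%.

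The 44 gene body sites of Nectin2 had a mean of 49.4% and 47.6% in 344SQP and 49.9% and 47.1% in 344SQR, a difference of 0.00227 points that was not called (FDR 0.602). This mean joins unlike stretches. The sites toward the promoter had little methylation on average, and 8 sites in exon 2 at 19738107 to 19738336 had 94.7%, 97.0%, 93.2% and 95.2%. In 344SQR, 3 sites of intron 3 at 19732152 to 19732388 were higher without overlap, 98.5% and 95.6% against 92.9% and 90.4%. So were 5 sites of intron 2 at 19734380 to 19734501, 94.5% and 91.7% against 91.3% and 89.1%, with 1 site called higher in each stretch. The intron 3 site, at 19732388, had 23 and 50 reads in 344SQP and 20 and 43 in 344SQR (FDR 0.0476). Fisher's exact test did not call it (FDR 0.202). In intron 1, 10 sites at 19748146 to 19748211 had 22.6% and 9.92% in 344SQP and 18.2% and 8.96% in 344SQR, higher in replicate 1 than in replicate 2 of both lines. The largest difference of a called site was in exon 2 at 19738330, with 90.4% and 94.6% of 52 and 56 reads in 344SQP and 71.4% and 81.5% of 49 and 54 reads in 344SQR (FDR 0.00629). The intervals of the nearest tumors overlapped, from 79.4% to 95.8% and from 69.2% to 89.6%. The body was called with z scores without a sign (FDR 1.37e-05) and without replicate 1 of 344SQP (0.903 points, FDR 0.00767). Its difference was -0.899 points without replicate 2 of 344SQP and -1.40 points without replicate 1 of 344SQR.

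For the promoters of Pdcd1lg2, Cd80, Cd86, Vtcn1 and Lgals9 reads were too few for a comparison. Over all listed sites together, the Cd80 promoter had 13 and 39 reads in 344SQP and 34 and 46 in 344SQR, of which 38.5%, 89.7%, 82.4% and 71.7% were methylated. The Pdcd1lg2 promoter had 1 and 2 reads against 12 and 39. All 12 reads were methylated in replicate 1 of 344SQR (Wilson interval from 75.8%) and 59.0% in its replicate 2 (43.4% to 72.9%). The Lgals9 promoter had 2 and 2 against 14 and 37 reads. None was methylated in the 344SQP tumors or in replicate 1 of 344SQR (Wilson interval up to 21.5%), and 18.9% in replicate 2 of 344SQR (9.48% to 34.2%). Cd86 had at most 18 reads and Vtcn1 at most 6 in a tumor. The lines were not compared in these 5 promoters.

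The measured promoters were those richer in CpG. In mm10 the promoter windows of Cd276 (the one with sites), Pvr, Nectin2 and Vsir (its first) held 8, 12, 12 and 7 CCGG cut sites and an observed over expected CpG ratio from 0.632 in Cd276 down to 0.395 in Vsir. That of Cd274 held 4 cut sites at a ratio of 0.545. In the windows of Pdcd1lg2, Cd80, Cd86, Vtcn1 and Lgals9 the ratio ran from 0.0902 in Vtcn1 to 0.337 in Cd86, with 1 to 4 cut sites. The 3 promoters with the highest ratios, Cd276, Pvr and Nectin2, were those under 3% methylated in every tumor, and 54.5% of all measured promoters had a mean under 5%.

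Coverage set the membership of a site. Among the member sites, 14 had a lowest coverage of 20 to 24 reads, with a mean of 17.6% and 18.8% in 344SQP and 19.7% and 16.6% in 344SQR. Just below the minimum, 18 sites had a lowest coverage of 15 to 19 reads, with 31.2% and 25.7% against 29.3% and 23.2%. Coverage of the 298 sites ran from 20 to 276 reads with a median of 113. Relative to the mean coverage of each tumor, the median depth at the 79 Nectin2 sites was 1.12, 0.935, 1.03 and 0.734, and at the 20 Pdcd1lg2 sites 0.730, 0.959, 1.05 and 0.994.

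Receptors and partners of the ligands were hardly covered: 2 of 11 promoters had sites. Rgmb, whose product binds PD-L2, had 1.63%, 1.37%, 1.62% and 1.43%, and Igsf11, which codes for a VISTA partner, had 1.76%, 0.998%, 1.65% and 1.46%, and neither was called. Of 25 other ligands and checkpoint surface molecules 14 were measured, 4 lower, 1 higher and 9 not called. The share called was 35.7%, against 38.5% of all promoters, and the median difference was 0.00884 points, against -0.234 over all promoters. Tnfsf14, a TNF family ligand that costimulates T cells, fell from 37.4% and 58.7% to 28.7% and 43.2% (FDR 5.89e-09), a call that ended without replicate 2 of 344SQP (-1.49 points, FDR 0.420) and whose difference of -12.1 points was -22.8 without its replicate 1, -4.90 without replicate 1 of 344SQR and -19.4 without replicate 2 of 344SQR. Nectin1, an adhesion molecule related to nectin-2, fell from 2.09% and 2.46% to 1.32% and 1.58% (FDR 5.45e-10), at -0.826 points, which was -0.449 points with a minimum of 50 reads, and was not called with z scores without a sign (FDR 1). Entpd1, an enzyme that breaks down extracellular ATP, had 11.8% and 11.1% against 9.06% and 9.44% (FDR 0.0262), and Tnfsf9, a TNF family ligand, 0.327% and 0.864% against 1.39% and 2.11% (FDR 0.0498). The Entpd1 call ended without replicate 1 of 344SQP (-1.81 points, FDR 0.712) or of 344SQR (-1.98 points, FDR 0.0879), and that of Tnfsf9 without replicate 1 of 344SQP (0.886 points, FDR 0.15) or replicate 2 of 344SQR (0.795 points, FDR 0.408). Both calls also ended with a minimum of 50 reads, at equal depth, with the 5' TSS alone and with unsigned z scores. The Entpd1 difference of -2.17 points was -1.02 points with 50 reads and -0.843 points with the 5' TSS alone. That of Tnfsf9 stayed at 1.15 points in both (FDR 0.0504 and 0.0509). The Entpd1 call also ended with a minimum of 10 reads (-0.798 points, FDR 0.166), and that of Tnfsf9 with merged strands (FDR 0.0551).

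Of 20 genes that regulate the level of PD-L1, among them Jak1, Jak2 and Irf1 of the interferon path, all 20 promoters were measured and all 20 were under 5% in every tumor. The median difference was -0.114 points and 19 were not called, so 5% were called, against 38.5% of all promoters. Nfkb1, an NF-kB subunit gene, had 1.98% and 1.83% in 344SQP and 1.16% and 1.47% in 344SQR (FDR 0.0456). Its call ended without replicate 1 of 344SQP (-0.511 points, FDR 0.858), without replicate 2 of 344SQP (-0.656 points, FDR 0.130) or without replicate 1 of 344SQR (-0.429 points, FDR 0.0903), and also with a minimum of 50 reads (-0.316 points, FDR 0.243) and with unsigned z scores. The adjusted p of edgeR for the 5 called promoters named here, Tnfsf14, Nectin1, Entpd1, Tnfsf9 and Nfkb1, ran from 0.588 to 0.904.

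Since the tumors hold host cells, promoters of genes that mark other cells were read in the same way. Of 34 leukocyte genes 10 promoters were measured, 6 lower and 0 higher in 344SQR, so 60% were called, against 38.5% of all promoters. The median difference was -12.5 points, with a mean of 50.6% and 58.9% in 344SQP and 43.3% and 38.8% in 344SQR. Of 10 fibroblast and endothelial genes 7 were measured, 2 lower and 2 higher (57.1% called), with a mean of 40.4% and 50.6% against 33.0% and 49.6% and a median difference of -6.25 points. The promoters named below, Kdr and Pdgfra, are the 2 higher ones, and the other 5, with fewer than 5 sites each, all had a lower mean in 344SQR. Kdr, an endothelial receptor gene, had 8.48% and 13.2% against 11.4% and 26.8% (FDR 5.16e-33), and the call ended without replicate 2 of 344SQR (0.502 points, FDR 0.991), while the difference of 8.23 points was 16.0 points without its replicate 1. Pdgfra, a fibroblast receptor gene, had 14.3% and 27.1% against 16.0% and 35.1% (FDR 0.000614), with -4.65 points without replicate 2 of 344SQR (FDR 0.00877) and -1.52 points without replicate 1 of 344SQP (FDR 0.606). Its difference of 4.87 points was 11.3 and 14.4 points without the other tumors, and unsigned z scores ended the call (FDR 0.166). Of 10 epithelial genes 8 were measured, 3 lower and 1 higher (50% called), with a mean of 13.4%, 12.2%, 12.4% and 11.2% and a median difference of -0.0868 points. Krt18, a keratin gene, had 5.69% and 4.68% against 2.70% and 4.73% (FDR 6.57e-05), not called without replicate 1 of 344SQP (-0.971 points, FDR 0.143) or with unsigned z scores (FDR 0.0667), and its difference of -1.47 points was -0.462 and -2.49 points without replicate 1 and replicate 2 of 344SQR and -0.867 points with a minimum of 10 reads. Grhl2, an epithelial transcription factor gene, had 12.1% and 12.3% against 10.4% and 22.2% (FDR 7.24e-09), and -1.83 points without replicate 2 of 344SQR (FDR 0.606) and 10.1 points without its replicate 1. Its difference of 4.11 points was 11 points with a minimum of 50 reads and 1.40 points with merged strands. The adjusted p of edgeR for these 4 promoters ran from 0.661 to 0.921.

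The hosts were female, and 47437 and 35071 of the CpG calls of the 344SQP tumors and 89028 and 31130 of those of the 344SQR tumors lay on chromosome Y. The share of such calls was higher in replicate 1 than in replicate 2 of both lines, as were the Lgals9 site and the Nectin2 intron 1 stretch. The Vsir promoter and the Cd276 exon 3 stretch were lower in replicate 1 of both lines. Deviations of same-numbered tumors from their line means correlated at r = 0.811 over 16692 promoters with at least 5 sites. Such an order was thus not particular to these regions. The part of the cell makeup in these differences was not tested.

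Within 50 kb of the 10 genes, 26 promoters of other genes were measured and 8 were called, 7 lower and 1 higher, with a median difference of -0.274 points. The share called was 30.8%, against 38.5% of all promoters. Of the 8 called neighbors, 2 differed by at least 10 points. Apoe, an apolipoprotein gene near Nectin2, fell from 17.1% and 18.1% to 7.55% and 7.59% (FDR 2.01e-31), between -10.5 and -9.56 points when a tumor was left out. With the 5' TSS alone the difference of -10.0 points was -17.3 points, and edgeR gave an adjusted p of 0.417. Gm17455, near Vsir, had 2 sites with 78.9% and 60.3% in 344SQP and 63.7% and 44.5% in 344SQR (FDR 2.59e-10), -6.15 points without replicate 1 of 344SQP, -5.85 points without replicate 2 of 344SQR, -24.8 points without replicate 2 of 344SQP and -25.0 points without replicate 1 of 344SQR, and an adjusted p of 0.654 in edgeR.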

How the data were processed

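RRBS tables of 4 tumors were analysed. The authors trimmed reads with Trim Galore 0.4.1 and cutadapt 1.9.1, mapped them to mm10 with Bismark and Bowtie 1.1.2, and deposited, for each CpG and strand of every replicate, coverage (a count of reads) and percent methylated. Methylated reads were recomputed as coverage times percent; at 20 reads, 1 read is worth 5 points. All 298 member sites fell on a CpG of GRCm38. TSS came from GENCODE M21 (basic set). Sites were tested by a likelihood ratio test (p floored at 2.2e-16), combined by Stouffer's signed z score and adjusted over all promoters, gene bodies or sites (Benjamini-Hochberg). Alternatives were coverage minimums of 10 and 50 reads, merged strands, equal depth, the 5' TSS alone, bodies without promoter sites of other genes, unsigned z scores, edgeR, replicate blocks, Fisher's exact test and each tumor left out. The test code was run on reads simulated without spread between tumors, which does not check the tests against such spread. The rule for naming genes beyond the members was: up to 4 called promoters per list with the largest difference among those with at least 5 sites, the 3 promoters most like Vsir, and called neighbors within 50 kb that differed by at least 10 points. Outside this rule, Rgmb, Igsf11, Jak1, Jak2 and Irf1 were named without a call, as were genes and pseudogenes that overlap members. Sites at most 250 bp apart form a stretch, and exon numbers follow the principal transcript. Members and lists were chosen with earlier results of these data known. Python 3.11.15, numpy 2.4.6, scipy 1.17.1, pandas 2.3.3, matplotlib 3.10.9, R 4.3.3, edgeR 4.0.16 and limma 3.58.1 were used.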

Additional observations from a re-analysis of the deposited data

How the results depend on the processing

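The counts of called promoters and gene bodies, and of members among them, stayed within 1.5 times of the reported ones under the following alternatives. They were the other coverage minimums, merged strands, equal depth, the other promoter and gene body windows, unsigned z scores and the Mantel-Haenszel test. So did the count of called member sites under the other coverage minimums, equal depth, the Mantel-Haenszel test and Fisher's exact test. Calls over all single sites were not compared between settings. With edgeR, 15 promoters and 1 gene body were called in place of 7750 and 12274, and 0 member promoters and 0 member bodies; this test takes in the spread between tumors. Leaving out a tumor leaves a single tumor in a line. The difference of the Vsir promoter, the only member promoter called with all tumors, then ran from 1.57 to 18.6 points, and its call rests on 1 tumor, as given above.

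Tumors of the 2 lines share replicate numbers, and nothing in the labels pairs them. Their deviations correlated at r = 0.811 over 16692 promoters with at least 5 sites. With the number as a replicate block, edgeR called 2444 promoters and 4244 gene bodies, 0 member promoters and 1 member body (Pdcd1lg2, adjusted p 0.00157), and among the other named promoters Apoe (0.00229), Kdr (0.0019) and Nectin1 (0.0453); the blocked Mantel-Haenszel test called 7549 promoters and 12129 bodies, and 1 and 4 members.

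Directions turned under some settings, in each case for members without a call except where given, and the cause was not tested. With edgeR the log2 odds ratio was 0.175 for the Cd274 body (0.173 blocked), -0.00582 for the Nectin2 promoter (-0.00708 blocked) and -0.138 for the Nectin2 body (-0.138 blocked). The Nectin2 body was at -0.0457 points with a minimum of 10 reads, -0.258 with 50 reads and -0.169 with the 5' TSS alone; the Cd276 promoter at -0.0124 with merged strands; and the Vtcn1 body at -0.625 at equal depth. Leaving out a tumor gave these ranges in points: Cd274 promoter -1.80 to 3.70 and body -6.03 to 1.83; Cd86 body -16.0 to 2.70; Cd276 promoter -0.0932 to 0.222 and body (called) -6.34 to 1.27; Vtcn1 body -0.175 to 1.12; Lgals9 body -8.65 to 13.7; Pvr promoter -0.0554 to 0.242 and body -0.6 to 1.9; Nectin2 promoter -0.0657 to 0.349 and body -1.40 to 1.40; and, both called, Pdgfra -4.65 to 14.4 and Grhl2 -1.83 to 10.1. Without a turn or a call, differences moved by over 1.5 times in the Cd276 promoter (0.105 points with a minimum of 10 reads, 0.0974 with 50), the Pvr promoter (0.025 with 10, 0.183 with 50), the Nectin2 promoter (0.0843 at equal depth, 0.372 with the 5' TSS alone), the Nectin2 body (0.0837 with merged strands, 0.242 at equal depth) and the Lgals9 body (7.04 at equal depth). Over all single genes and settings, 256 differences kept their direction and side of the threshold, 55 lost the call, 7 gained one and 28 changed sign.

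Each group is 1 cell line grown in 2 mice, so line and resistance cannot be told apart, and a value joins tumor and host cells. All tumors were treated with anti-PD1. The likelihood ratio test takes reads as independent, and edgeR without the replicate block called no member. RRBS reached 5 of the 10 member promoters, Cd86 and Lgals9 have 1 site each, and most Cd80 sites lie in pseudogenes. No expression was measured in these samples.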
